A study of Mus musculus with 7 samples.

Results

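The JAK-STAT pathway was followed through 10 genes: the 4 Janus kinases Jak1, Jak2, Jak3 and Tyk2, the transcription factors Stat3, Stat5a, Stat5b and Stat6, and the feedback inhibitors Socs3 and Cish. They were chosen by gene symbol from a table of 35641 genes, and all 10 passed the filter on low values, as did 14936 genes in all. The table held RNA sequencing of cells labelled neutrophils, sorted from the lung, from 4 mice of a group named HF and 3 of a group named LF, all female C57BL6. The labels do not spell out these names, and the study's title speaks of obesity. They give no age and no other treatment, and every mouse of both groups had the same strain and sex. The sort took CD45+ CD11b+ cells with Ly6G and with low Ly6C, and the libraries were amplified from small amounts of RNA with a SMART-Seq kit.

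Receptors for many cytokines carry no kinase of their own. They hold a pair of Janus kinases, which phosphorylate STAT proteins when a cytokine binds, and the STAT proteins then move to the nucleus and act as transcription factors. Among the genes that STAT proteins switch on are those of the SOCS family, whose products block the receptors or the kinases, so the pathway limits itself. In neutrophils the pathway is best known for the response to granulocyte colony-stimulating factor, which runs through STAT3 and is held back by SOCS3.

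Values are normalized counts, and assigned reads ranged from 13943173 to 18983351 per library. Genes with a read ranged from 16743 in HF replicate 3 to 26409 in HF replicate 2. The normalized totals were 17926505 to 19520195 in HF and 12742618 to 13085106 in LF. The sort marker gene Ly6g averaged 3264 ± 1715 (SD, n = 4) in HF and stood at 0.749, 0 and 8.22 in the LF libraries. The calprotectin genes S100a8 and S100a9 averaged 41606 and 57401 in HF and 69.4 and 56.2 in LF, and the chemokine receptor gene Cxcr2 averaged 46723 and 19.5. The monocyte receptor genes Csf1r and Ccr2 went the other way, with 14073 and 909 in HF and 33667 and 21847 in LF. Of 14 neutrophil markers 13 were higher in HF and 0 lower, with a summed level of 343546 to 503985 in HF and 7630 to 8811 in LF. Of 14 monocyte and macrophage markers 0 were higher and 11 lower, with a summed level of 27689 to 38723 in HF and 157527 to 167330 in LF. Of 11 dendritic cell and MHC class II markers tested, 1 was higher and 8 lower. For 11 tested T, NK and B cell markers limma called 0, with 1 lower at an unadjusted p under 0.05. For the same markers edgeR called 0 and DESeq2 called 1 higher. The counts of higher and lower markers were 3 and 0 of 9 for eosinophils, basophils and mast cells, 2 and 2 of 8 for alveolar macrophages, 3 and 1 of 9 for endothelium, epithelium and stroma, and 5 and 0 of 8 for platelets. The counts of 0 for the neutrophil, monocyte, eosinophil and platelet lists were also 0 at an unadjusted p under 0.05 and with edgeR and DESeq2. These markers run against the Ly6G+ sort in the LF samples, which are therefore called the LF-labelled libraries throughout, and directions are given for HF relative to them. The part of cell type in the differences of the JAK-STAT genes was not tested, and in such bulk samples fewer cells of a type and less RNA per cell cannot be told apart.

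Of the 10 genes, Jak1, Jak2, Stat3, Stat5b, Stat6 and Socs3 were higher in HF and Tyk2 was lower, while Jak3, Stat5a and Cish did not pass the test. The test was limma on log2(normalized count + 1) over all 14936 genes, with a Benjamini-Hochberg adjusted p of 0.05 as the threshold. Of all genes tested, 55.0% passed it, 26.2% as higher and 28.7% as lower in HF. With equal library totals 5 of the 10 were higher and 2 lower, and after quantile normalization 5 and 1. The median log2 difference of the 10 genes was 0.92, against -0.16 over all genes tested. It was 0.41 when libraries were scaled to equal totals and 0.36 after quantile normalization, where the median over all genes was -0.67 and -0.08. The members were chosen with earlier results of these data known, so these medians describe them and are no test. The groups did not overlap in 7 of the 10 genes, as in 62.2% of all genes tested (28.4% with HF above and 33.7% with HF below).

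**Figure D1:**
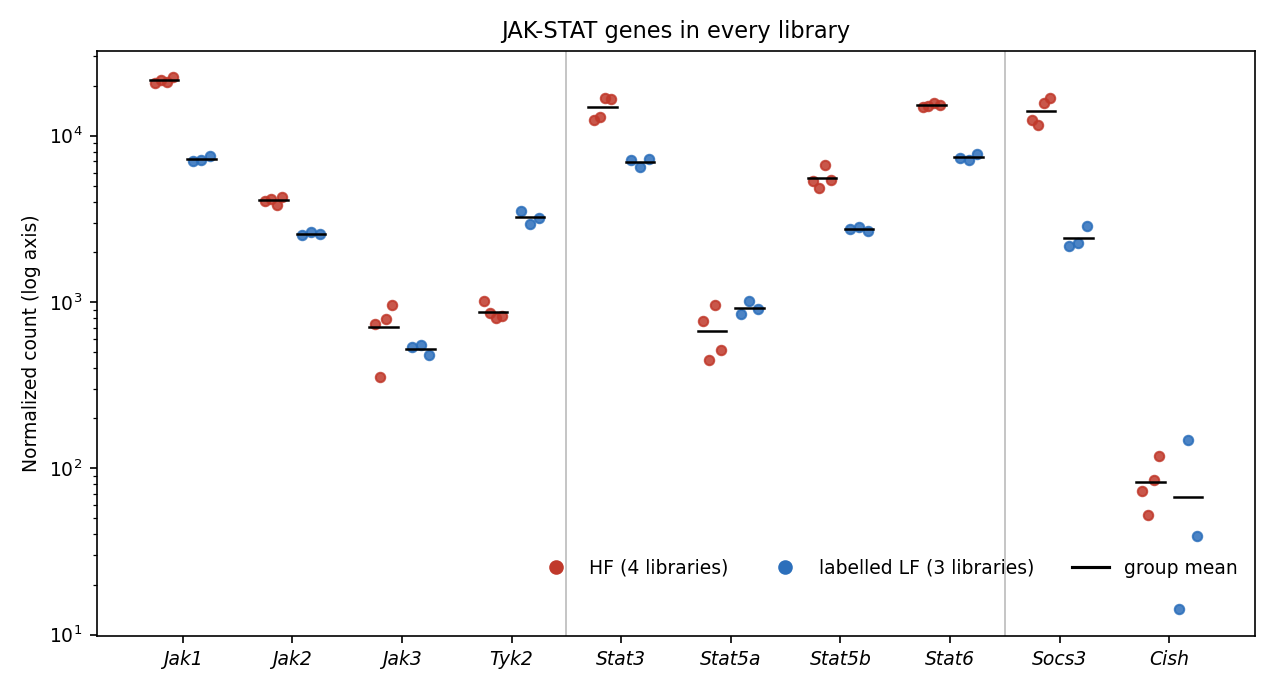
Normalized counts (log axis) of the 10 JAK-STAT genes in every library, with HF in red, the LF-labelled libraries in blue and group means as black bars. HF stands above in Jak1, Jak2, Stat3, Stat5b, Stat6 and Socs3, Tyk2 lies the other way, and Jak3, Stat5a and Cish overlap.

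Jak1 (ENSMUSG00000028530), the kinase shared by the interferon, interleukin-6 and interleukin-10 receptor families, was the most abundant of the 10 genes in HF by normalized count. It stood at 20683, 21692, 21150 and 22436 in HF replicates 1 to 4 and at 7030, 7179 and 7536 in LF6, LF7 and LF8. The groups lay far apart and varied little, with a coefficient of variation of 3.51% in HF and 3.59% in the LF-labelled libraries. The log2 difference was 1.57 ± 0.05 (SE; limma adjusted p = 2.2e-07), and the ratio of means was 2.96. After quantile normalization the log2 difference was 0.70. By mean normalized count Jak1 ranked 126 of the 14936 genes tested in HF and 256 in the LF-labelled libraries.

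Jak2 (ENSMUSG00000024789), the kinase of the receptors for erythropoietin, growth hormone and granulocyte-macrophage colony-stimulating factor, was also higher. Its values were 4037, 4139, 3849 and 4300 in HF and 2539, 2622 and 2556 in the LF-labelled libraries. Again no HF library reached down to the other group. Jak2 differed by a log2 value of 0.66 ± 0.07 (SE; limma adjusted p = 0.00011), but 0.145 when libraries were scaled to equal totals (limma adjusted p = 0.104) and 0.177 after quantile normalization (limma adjusted p = 0.0681). So the call of Jak2 was lost under these 2 scalings.

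Tyk2 (ENSMUSG00000032175), the kinase that pairs with Jak1 at the type I interferon receptor and with Jak2 at the receptors for interleukin-12 and interleukin-23, was the only member past the threshold in the other direction. It stood at 1008, 856, 796 and 826 in HF and at 3504, 2964 and 3214 in the LF-labelled libraries. Every HF library lay below every LF-labelled library. Tyk2 had a log2 difference of -1.89 ± 0.12 (SE; limma adjusted p = 4.9e-06), and the mean was 3.70 times as high in the LF-labelled libraries. An annotated antisense gene, listed at 0 in all 7 libraries, covers 8.07% of the exon bases of Tyk2, and the strand setting of the counting is not given in the sources used here.

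Jak3 (ENSMUSG00000031805), which works only with receptors that hold the common gamma chain, did not pass. Its values were 734, 356, 795 and 962 in HF and 536, 552 and 483 in the LF-labelled libraries. HF replicate 2 lay below all LF-labelled libraries and the other HF libraries above them. The log2 difference was 0.35 with a 95% interval of -0.38 to 1.09 (limma adjusted p = 0.37), and it turned to -0.165 with equal library totals. Without HF replicate 2 Jak3 was higher, by 0.66 (limma adjusted p = 0.0085; range over the alternatives 0.0085 to 0.66). Its annotated exons share 404 bases with Insl3 on the same strand, a gene that stood at 3.86 to 17.9 in HF and at most 3.00 in the LF-labelled libraries.

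Levels of different genes were compared per kb of merged exon, from GENCODE M21 lengths, which may not be those the authors counted on. Per kb, Jak1 led in both groups. In HF it made up 73.5% ± 1.03 (SD, n = 4) of the summed kinase level, followed by Jak2 with 20.1% ± 0.507, while Jak3 (3.28%) and Tyk2 (3.14%) overlapped in level. In the LF-labelled libraries Jak1 held 48.2% ± 1.45 (SD, n = 3), Jak2 24.6% and Tyk2 22.6% ± 1.72, the last pair overlapping, and Jak3 held 4.70%. The place of Tyk2 thus changed from level with Jak3 to level with Jak2.

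**Figure D2:**
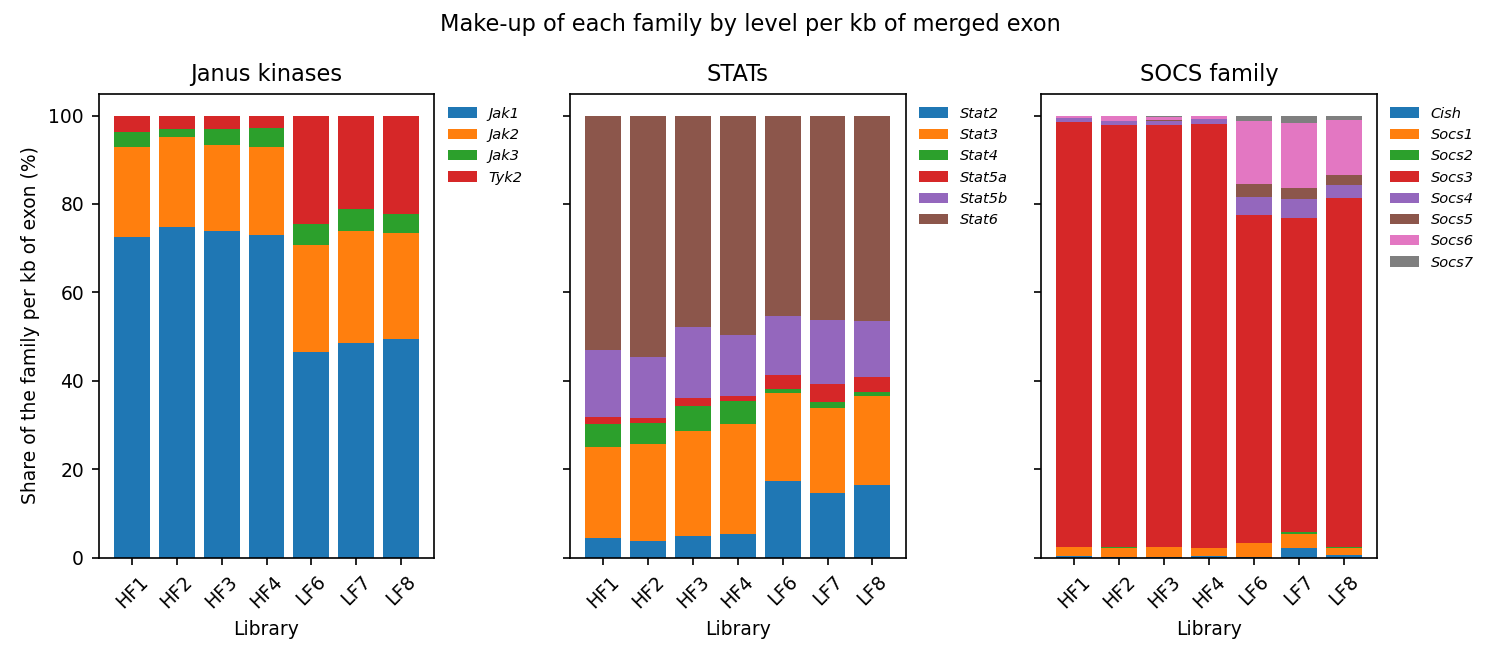
Shares (%) of each gene in the summed level per kb of merged exon of the Janus kinases, of 6 STAT genes and of the SOCS family, with a bar for every library. The Tyk2 share is 2.83 to 3.72% in HF and 21.1 to 24.4% in the LF-labelled libraries, and the Socs3 share is 95.3 to 96.0% against 71.0 to 78.8%.

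Ratios within a library do not depend on the scaling between libraries, so 7 were compared with exact two-sided permutation tests, for which 4 against 3 libraries allow no p below 0.0571. The log2 ratio of Tyk2 to Jak1 was -4.36, -4.66, -4.73 and -4.76 in HF and -1.004, -1.28 and -1.23 in the LF-labelled libraries. The groups did not overlap, and the means differed by -3.46 (exact permutation p = 0.0571, adjusted over the 7 ratios 0.08). The log2 ratio of Jak2 to Jak1 was lower in each HF library as well, with means of -2.40 and -1.49 and a difference of -0.90 (exact permutation p = 0.0571, adjusted 0.08). That of Jak3 to Jak1 had means of -5.00 and -3.79 and a difference of -1.21 (exact permutation p = 0.0571, adjusted 0.08). Against Jak1, each of the other 3 kinases thus stood lower in every HF library than in any LF-labelled library, although none of these ratios could pass 0.05 in this design. All 3 ratios share Jak1, so they are not separate results. The log2 difference of Jak1, 1.57, itself lay above the upper quartile of all genes tested, 0.99. How many other genes stood lower against Jak1 was not counted.

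Among the transcription factors, Stat6 (ENSMUSG00000002147), which carries the signal of interleukin-4 and interleukin-13, had the highest mean normalized count and the highest level per kb in both groups. It stood at 14893, 15030, 15736 and 15400 in HF and at 7388, 7172 and 7737 in the LF-labelled libraries. The HF values kept within a narrow band, with a coefficient of variation of 2.49%. On the log2 scale Stat6 differed by 1.04 ± 0.05 (SE; limma adjusted p = 1.6e-06), but by 0.52 with libraries scaled to equal totals and by 0.22 after quantile normalization (limma adjusted p = 5e-05 and 0.0108). Stat6 made up 51.3% ± 3.07 (SD, n = 4) of the level per kb summed over Stat2, Stat3, Stat4, Stat5a, Stat5b and Stat6 in HF and 46.0% ± 0.631 (SD, n = 3) in the LF-labelled libraries.

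Stat3 (ENSMUSG00000004040), the factor used by the interleukin-6, interleukin-10 and granulocyte colony-stimulating factor receptors, was next. Its values were 12493, 13015, 16955 and 16682 in HF and 7098, 6462 and 7268 in the LF-labelled libraries. HF replicates 3 and 4 stood above HF replicates 1 and 2, and all 4 stood above the other group. The log2 difference was 1.08 ± 0.12 (SE; limma adjusted p = 0.00016), but 0.56 with libraries scaled to equal totals and 0.26 after quantile normalization (limma adjusted p = 0.002 and 0.0336). Relative to Stat6, the log2 ratio of Stat3 was -0.25, -0.21, 0.11 and 0.12 in HF and -0.06, -0.15 and -0.09 in the LF-labelled libraries. These overlapped, with a difference of 0.04 (exact permutation p = 0.686, adjusted 0.8).

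Stat5a (ENSMUSG00000004043) and Stat5b (ENSMUSG00000020919) encode close relatives that pass on signals of interleukin-2, interleukin-3, granulocyte-macrophage colony-stimulating factor and growth hormone. Stat5b stood at 5345, 4832, 6655 and 5411 in HF and at 2742, 2811 and 2663 in the LF-labelled libraries, without overlap. It was higher in HF by 1.01 ± 0.11 (SE; limma adjusted p = 0.00012), but by 0.49 with libraries scaled to equal totals and 0.46 after quantile normalization (limma adjusted p = 0.0041 and 0.0037). Stat5a stood at 764, 449, 959 and 517 in HF and at 842, 1010 and 901 in the LF-labelled libraries. HF replicates 2 and 4 were low, while HF replicate 3 lay among the LF-labelled libraries. The log2 difference of Stat5a was -0.51 with a 95% interval of -1.12 to 0.09 (limma adjusted p = 0.13). Stat5a was lower without HF replicate 3, by -0.70 (limma adjusted p = 0.0277), and with equal library totals, by -1.03 (limma adjusted p = 0.0103; range over the alternatives 0.0103 to 0.298). The log2 ratio of Stat5b to Stat5a was 2.80, 3.43, 2.79 and 3.39 in HF and 1.70, 1.48 and 1.56 in the LF-labelled libraries. The paralog ratio was higher in every HF library, by 1.52 on average (exact permutation p = 0.0571, adjusted 0.08). Of the stretches of 50 bases in the GENCODE transcripts, 631 of 7407 in Stat5a and 608 of 5535 in Stat5b also occur in another gene. For Stat5b that gene is Stat5a, and for Stat5a the genes are Stat5b and Stat3. How reads from such stretches were assigned is not known here, so the split between Stat5a and Stat5b is uncertain there.

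Outside the 10, Stat4 and Stat2 differed in opposite directions. Stat4, which passes on interleukin-12, had a mean of 1382 ± 182 (SD, n = 4) in HF against 150 ± 30.8 (SD, n = 3), which is a log2 difference of 3.20 ± 0.18 (SE; limma adjusted p = 3.5e-06). Stat2, which acts in type I interferon signalling, was lower in HF, at 1870 against 3498, a log2 difference of -0.92 (limma adjusted p = 0.0031), which was -1.44 with equal library totals. Per kb, the order of these genes in HF ran from Stat6 through Stat3 and Stat5b to Stat4 and Stat2, the last pair overlapping, and ended with Stat5a. In the LF-labelled libraries the order was Stat6, Stat3, Stat2, Stat5b, Stat5a and Stat4, with no overlap between neighbours.

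**Figure D3:**
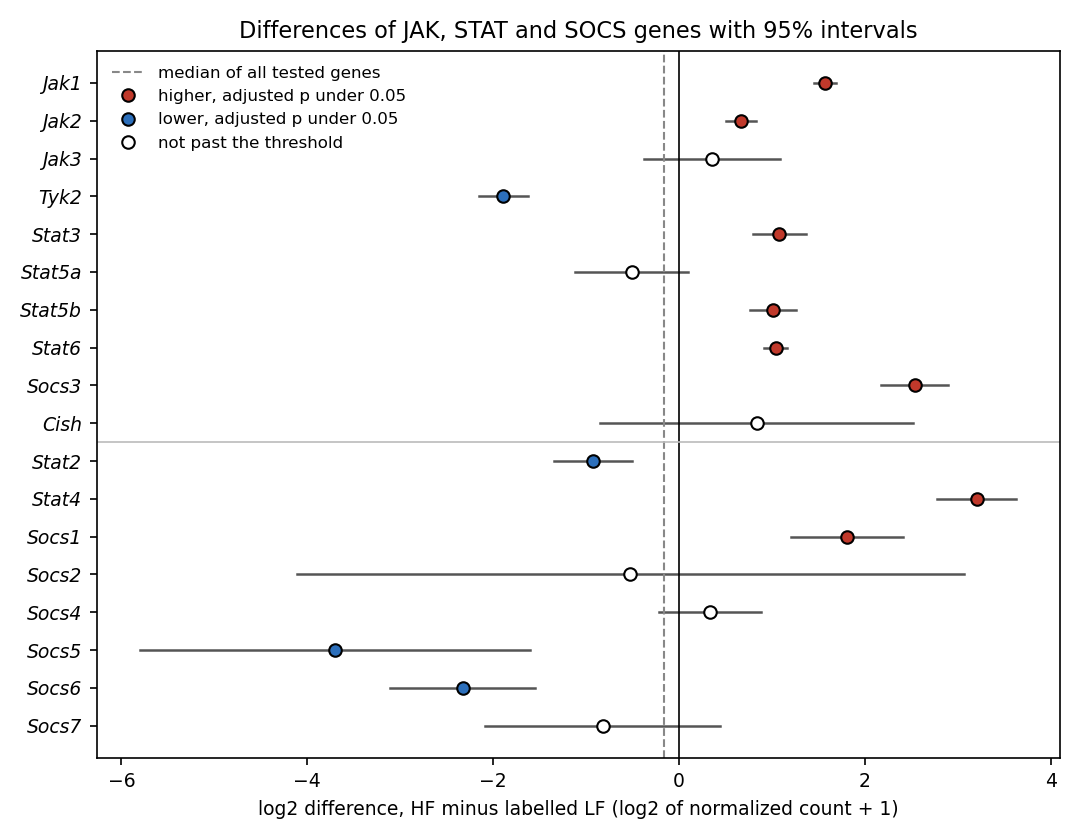
log2 differences (HF minus the LF-labelled libraries) of JAK, STAT and SOCS genes, as points with 95% intervals from limma. Filled points passed an adjusted p of 0.05, open points did not, and the dashed line marks the median of all genes tested at -0.16. Socs3 is the highest of the 10 members at 2.53 and Tyk2 the lowest at -1.89.

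Socs3 and Cish encode inhibitors of the SOCS family, and both genes are known targets of STAT proteins. The promoter windows of all 10 members (12 windows of 300 bases, 250 before and 50 after the start, RefSeq, GRCm38.p6) were searched for the letters TTCNNNGAA, the core that STAT dimers recognise, and for a wider form preferred by STAT6, with 1 more free base between TTC and GAA. Each motif is its own reverse complement, so both strands were covered, and no match of either form overlapped a match of the other in these windows. Only the windows of Socs3 and Cish held TTCNNNGAA, and no member held the wider form. Of all 32851 promoter windows, 8.30% held TTCNNNGAA and 6.95% the wider form. Counted by gene, as the members were, the shares were 9.55% and 8.01% of 27025 genes. Socs3 held 1 match and Cish 2, and at least 2 matches occurred in 0.457% of all windows. The 2 windows are shown with the matches in capitals, 5′ to 3′ on the strand of the gene: Socs3 at chr11:117969317-117969616, minus strand, and Cish at chr9:107296409-107296708, plus strand.
Socs3: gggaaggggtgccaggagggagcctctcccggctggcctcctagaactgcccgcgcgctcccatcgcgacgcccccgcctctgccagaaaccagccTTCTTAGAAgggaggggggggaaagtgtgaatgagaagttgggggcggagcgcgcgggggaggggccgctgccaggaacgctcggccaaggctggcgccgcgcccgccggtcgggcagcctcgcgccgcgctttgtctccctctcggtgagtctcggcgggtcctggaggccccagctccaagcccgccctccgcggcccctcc
Cish: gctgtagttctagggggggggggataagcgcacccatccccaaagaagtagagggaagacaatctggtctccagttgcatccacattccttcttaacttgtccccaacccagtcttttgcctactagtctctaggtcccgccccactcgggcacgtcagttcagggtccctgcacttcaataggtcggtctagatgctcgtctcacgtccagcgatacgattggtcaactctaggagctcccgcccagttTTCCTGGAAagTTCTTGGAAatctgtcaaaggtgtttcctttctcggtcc
The Socs3 match spans bases 97 to 105 of its window, upstream of the annotated start. The Cish matches end at bases 259 and 270 of its window, past the annotated start. A match is a run of letters and not a measured site, and the deposited data hold no measurement of binding.

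Socs3 (ENSMUSG00000053113), the inhibitor of signalling through gp130 and the granulocyte colony-stimulating factor receptor, had the largest difference of the 10 genes. It stood at 12439, 11526, 15677 and 16869 in HF and at 2162, 2255 and 2862 in the LF-labelled libraries. The lowest HF library was several times above the highest LF-labelled library. As with Stat3, Jak3, Stat5b, Stat6 and Cish, HF replicates 3 and 4 were above HF replicates 1 and 2. For Socs3 this is a log2 difference of 2.53 ± 0.16 (SE; limma adjusted p = 5.3e-06), its range under the alternatives being 1.93 to 2.66, and the ratio of means was 5.82. Relative to Stat3, the log2 ratio of Socs3 was -0.01, -0.18, -0.11 and 0.02 in HF and -1.71, -1.52 and -1.34 in the LF-labelled libraries. Against Stat3, Socs3 stood higher in every HF library, by 1.46 (exact permutation p = 0.0571, adjusted 0.08). Its normalized count ranked 211 of 14936 in HF and 1210 in the LF-labelled libraries.

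Cish (ENSMUSG00000032578), an inhibitor that STAT5 switches on and that binds cytokine receptors, was the least abundant of the 10 genes, with 273 reads in HF and 272 in the LF-labelled libraries. Its values were 72.6, 52.7, 85.2 and 119 in HF and 14.2, 147 and 39.0 in the LF-labelled libraries. LF7 stood above all other libraries and LF6 below all others. The log2 difference was 0.83 with a 95% interval of -0.85 to 2.52 (limma adjusted p = 0.36). It was 0.06 without LF6 and 1.70 without LF7 (limma adjusted p = 0.95 and 0.052; range over the alternatives 0.052 to 0.95). The authors' deposited table gives a log2 fold change of 0.304 with a standard error of 0.753 for Cish. As a log2 ratio, Cish to the sum of Stat5a and Stat5b stood at -6.38, -6.62, -6.46 and -5.62 in HF and -7.88, -4.69 and -6.48 in the LF-labelled libraries. These ranges overlapped, with a difference of 0.08 (exact permutation p = 0.914, adjusted 0.914). Annotated genes on the opposite strand cover 4.07% and 7.46% of the exon bases of Cish.

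**Figure D4:**
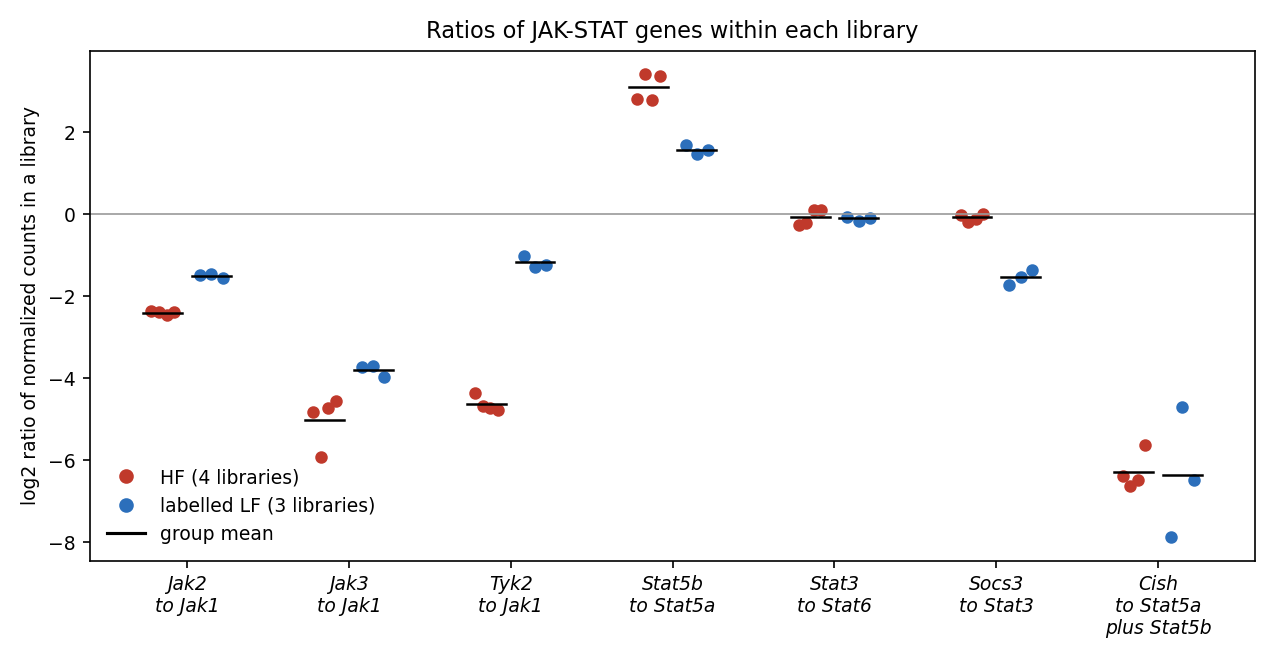
log2 ratios of normalized counts within each library (HF red, labelled LF blue, group means as black bars). The groups separate for Jak2, Jak3 and Tyk2 against Jak1, for Stat5b against Stat5a and for Socs3 against Stat3, and overlap for Stat3 against Stat6 and for Cish against the summed Stat5 genes.

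Within the SOCS family, Socs3 held 95.7% ± 0.369 (SD, n = 4) of the summed level per kb in HF and 74.7% ± 3.92 (SD, n = 3) in the LF-labelled libraries. Of the other 6 SOCS genes, 1 was higher, 2 were lower and 3 did not pass. This share of calls did not exceed the 55.0% of all genes tested (26.2% higher and 28.7% lower). Socs1, the inhibitor of interferon signalling, had a mean of 300.2 ± 59.1 (SD, n = 4) in HF against 85.2 ± 18.7 (SD, n = 3), higher by 1.81 ± 0.26 (SE; limma adjusted p = 0.00061). Socs6, which lies outside the classical JAK targets and binds receptor tyrosine kinases, averaged 369 ± 134 (SD, n = 4) and 1731 ± 102 (SD, n = 3), a log2 difference of -2.33 ± 0.34 (SE; limma adjusted p = 0.00062). It held 0.642% of the family in HF and 13.7% in the LF-labelled libraries. The family was thus Socs3 first in both groups, with Socs1 next in HF and Socs6 next in the LF-labelled libraries. Neutrophil markers had a median log2 difference of 9.82 between the same libraries and monocyte and macrophage markers one of -3.47.

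By Pearson correlation of log2 values over the 7 libraries, the genes most like Socs3 among 9560 with a mean of at least 50 were Smap2, Arid5a and Grb2, each with r of at least 0.998. In all, 1639 genes exceeded r = 0.95 with Socs3. The genes most like Cish were Fabp5 (r = 0.962), Cd3d (0.89) and Herc3 (0.85). Of the genes compared, 1 exceeded r = 0.95 with Cish. These correlations are a description over 7 libraries of 2 groups that lie far apart.

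Around the 10 genes, 33 receptors that use Janus kinases were listed, of which 30 were tested. Of these, 9 were higher, 8 lower and 13 not past the threshold, with a median of -0.05. The share of tested receptor genes called was 56.7%, against 55.0% of all genes tested. Csf3r, the receptor for granulocyte colony-stimulating factor, had a mean of 114715 ± 3601 (SD, n = 4) in HF against 5670 ± 205 (SD, n = 3), which is a log2 difference of 4.34 ± 0.04 (SE; limma adjusted p = 2.5e-09). Il10ra, the ligand-binding chain for interleukin-10, was lower, at 2170 ± 296 (SD, n = 4) against 10285 ± 492 (SD, n = 3) (limma adjusted p = 1.8e-06). Il6st, the gp130 chain shared by the interleukin-6 family and a choice made after its values were seen, had values of 95.7, 158, 2.24 and 235 in HF and 1932, 1959 and 1806 in the LF-labelled libraries (limma adjusted p = 0.014). The interleukin-6 receptor gene Il6ra, chosen likewise, had means of 4056 and 4469 with no call (limma adjusted p = 0.35), but after quantile normalization it was lower by a log2 difference of -0.79 (limma adjusted p = 0.00042; range over the alternatives 0.00042 to 0.873). Among these receptor genes that act through Stat3, Csf3r was thus higher and Il6st and Il10ra lower, while the call of Il6ra depended on the scaling. With equal library totals the receptor counts were 7 higher and 13 lower.

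Of 20 ligand genes listed, 10 were tested, with 4 higher and 1 lower. The share of tested ligand genes called was no larger than the 55.0% of all genes tested (26.2% higher and 28.7% lower). Osm, the gene of the gp130 cytokine oncostatin M, stood at 5590, 6720, 9147 and 10242 in HF and at 301, 334 and 297 in the LF-labelled libraries. Among the HF libraries it was highest in replicates 3 and 4, as were the members Stat3, Socs3, Jak3, Stat5b, Stat6 and Cish. Jak1, Jak2, Tyk2 and Stat5a were not. Outside the members, Stat2, Stat4 and Socs1 had this order and Socs6 did not. Of the remaining SOCS genes, named after their values were seen, Socs4 had it and Socs2, Socs5 and Socs7 did not. The share of all genes tested with this order was not counted. Osm was higher by 4.63 ± 0.21 (SE; limma adjusted p = 8.3e-07). Il15, whose product signals through Jak1 and Jak3, averaged 5256 ± 796 (SD, n = 4) and 679 ± 60.4 (SD, n = 3) and was higher by 2.94 ± 0.13 (SE; limma adjusted p = 1e-06). With equal library totals 4 ligand genes were higher and 3 lower.

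Of 16 phosphatase, PIAS and adaptor genes, 9 were higher, 2 lower and 5 not past the threshold. That is 68.8% called, against 55.0% of all genes tested (26.2% higher and 28.7% lower). Ptprc, the CD45 phosphatase gene, averaged 78839 and 39627 and was higher by 0.99 ± 0.05 (SE; limma adjusted p = 9.7e-07), but its difference turned to -0.133 after quantile normalization (limma adjusted p = 0.0363). Ptpn6, the gene of the SHP-1 phosphatase that restrains the pathway in myeloid cells, averaged 22136 and 13229 and was higher by 0.75 ± 0.06 (SE; limma adjusted p = 3.6e-05), and turned to -0.248 after quantile normalization (limma adjusted p = 0.0141). The counts of this list changed with the scaling, with 3 higher and 4 lower at equal library totals and 4 higher and 6 lower after quantile normalization.

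Genes known as targets of the 3 factors were counted last. These lists were chosen with earlier results of these data known, and all tests used the same libraries. The counts therefore describe the lists and are no independent support. Of 14 tested STAT3 targets, 11 were higher and 0 lower with limma, at an unadjusted p under 0.05 and with edgeR and DESeq2, and their median was 1.54. With no filter 11 were higher and 1 lower. The counts were 10 and 1 with equal library totals (median 1.02) and 10 and 1 after quantile normalization (median 0.69). The transcription factor genes Cebpd and Junb were higher by 3.39 ± 0.08 and 2.30 ± 0.09 (SE; limma adjusted p = 6.3e-08 and 4.8e-07), and Fos, which had the highest mean of the list, by 1.54 ± 0.07 (SE; limma adjusted p = 1e-06). After quantile normalization Junb was higher by 1.39 and Fos by 0.44. Of 12 STAT5 targets, 8 were higher and 0 lower, again with limma, unadjusted, and with edgeR and DESeq2, with a median of 1.30, among them Osm and the myeloid factor gene Spi1, higher by 1.24 ± 0.08 (SE; limma adjusted p = 6.2e-06). After quantile normalization 7 were higher and 0 lower, with a median of 0.68, and Spi1 was higher by 0.40. Of 14 STAT6 targets, 2 were higher and 6 lower, with a median of -1.85. Il4ra, the receptor chain that starts STAT6 signalling, was higher, at 8343 ± 1722 (SD, n = 4) against 2013 ± 97.6 (SD, n = 3) (limma adjusted p = 2.5e-05). Klf4, a factor gene of monocytes and alternatively activated macrophages, was lower, at 112 ± 53.2 (SD, n = 4) against 1592 ± 182 (SD, n = 3) (limma adjusted p = 0.00018). Chil3, the highest of the list and also a marker of alveolar macrophages, stood at 30151 in HF replicate 1 and at 6508 to 9035 in the other HF libraries, and did not pass (limma adjusted p = 0.15). Several targets sit in more than 1 of these lists, and 26.2% of all genes tested were higher and 28.7% lower. The neutrophil and monocyte markers named above differed between the same libraries, and their part in these counts was not tested.

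**Figure D5:**
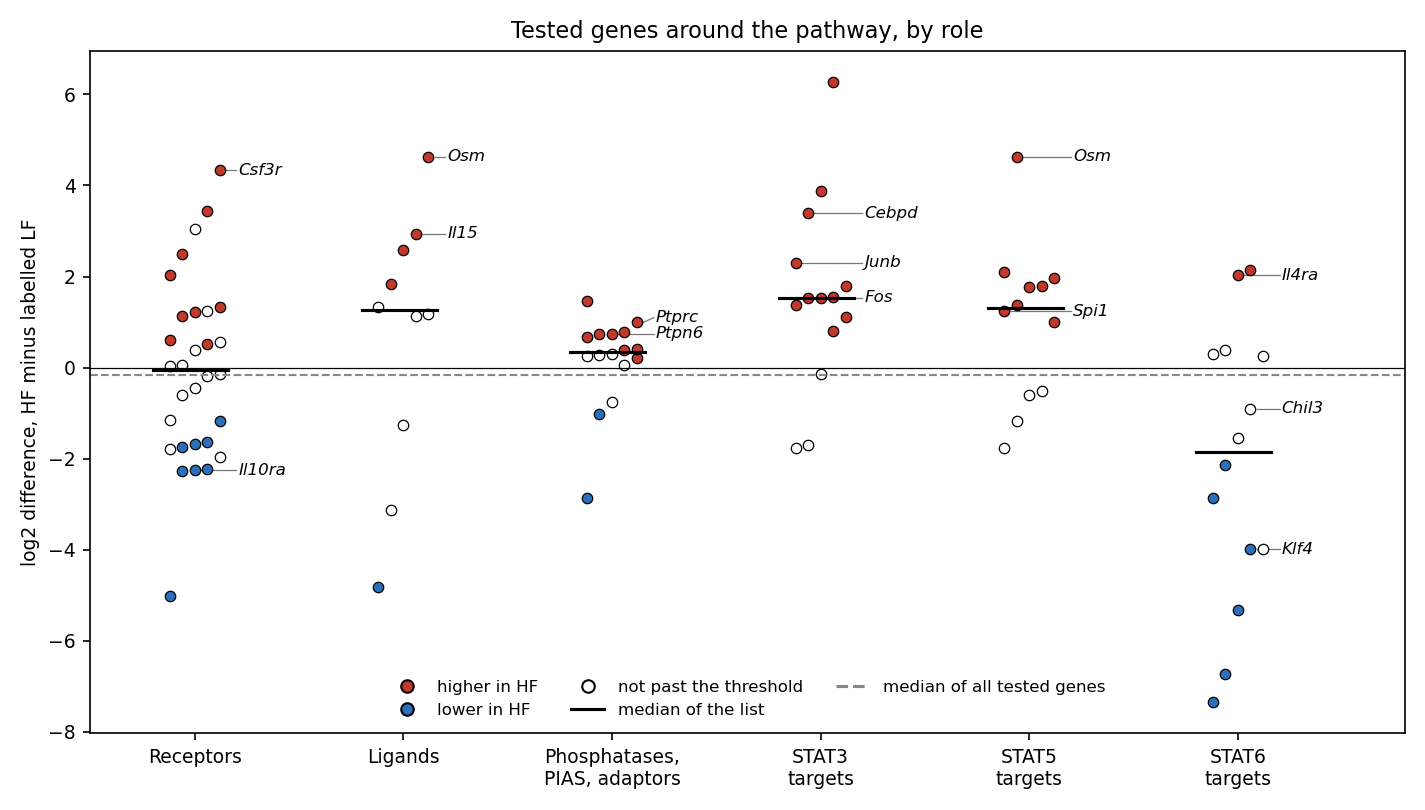
log2 differences (HF minus the LF-labelled libraries) of tested genes around the pathway, by role, with red for higher, blue for lower and white for not past the threshold, list medians as black bars and the median of all genes tested as a dashed line. Medians run from 1.54 for the STAT3 targets to -1.85 for the STAT6 targets, and Klf4 is the blue point of the pair beside its label.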

How the data were processed

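RNA from sorted lung cells was isolated with TRIzol LS and made into libraries with a SMART-Seq kit, per the labels' protocols. DESeq2 1.20.0, featureCounts 1.6.3 and STAR 2.6.1b stand in the submitters' processing notes without a role. Build, annotation and strand setting: not given in the sources used here. The deposited values are normalized counts (a signal), per the name of the deposited table. Dividing by the value that a single read has in a library gave whole reads for 100% of values, within 0.01. The authors' log2 fold changes, test statistic (a score) and p-values are in the deposited table too, and are used only where it is named. The HF columns carry sample numbers of the labels, the LF columns (LF6, LF7, LF8) only the group, and 0 columns were left out.

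Genes with a mean of at least 10 were tested with limma 3.58.1 in R 4.3.3 on log2(normalized count + 1), with trend. Ratios were tested with scipy 1.17.1, and figures drawn with matplotlib 3.10.9. Every fit was repeated with a pseudocount of 0.5 or 5, without the filter, with the filter raised to 50, with libraries scaled to equal totals, after quantile normalization, with single libraries dropped, and on recovered reads (DESeq2 1.42.0, edgeR 4.0.16). edgeR called 7624 genes on the recovered reads, and limma 8211 on the log2 values. The fits were also run on simulated data, and the outcome of that run is not reported here. The members and lists were chosen with earlier results of these data known. Genes named are the 10 members, the 3 genes of each related list that lead it by p (2 genes) or by mean (1 gene), 6 genes for the check of the labels, and the 3 most like Socs3 and Cish. Others are marked as picked after their values were seen. Exon lengths came from GENCODE M21 for 120 of 121 list genes, and promoter windows from RefSeq for 10 of 10 members. Protein sequences were not used here, and 1 related gene is not reported here. The median chi-square per gene was 12.1 to 16.2 between pairs of HF libraries and 2.29 to 3.00 between pairs of LF libraries, against 0.455 for sampling noise. The design text counts mice per group, with no word on cultures or pooling.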

Additional observations from a re-analysis of the deposited data

Results flagged for a closer look

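Among the HF libraries 3 values stood apart, the gap to the nearest library being a larger part of the range than Dixon's 95% critical value for 4 samples. Chance flags about 1 in 20 groups, and 40 were examined. Socs6 stood at 169 in HF replicate 1, where the other HF libraries lay between 425 and 455. Chil3 stood at 30151 in the same library, where the others lay between 6508 and 9035. Spi1 stood at 14702 in HF replicate 2, where the others lay between 17009 and 17242. None of the 10 JAK-STAT genes was among them.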

How the results depend on the processing

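Of the 10 members, Jak1, Tyk2, Stat3, Stat5b, Stat6 and Socs3 kept their direction and their call under all 16 alternatives, although the log2 differences of Jak1, Stat3, Stat5b and Stat6 after quantile normalization fell to between 0.22 and 0.70. Jak2 lost its call after quantile normalization and with equal library totals. The sign turned for Jak3 (-0.165) with equal library totals, and for Ptprc (-0.133) and Ptpn6 (-0.248) after quantile normalization. Stat5a passed with equal library totals and without HF replicate 3. Equal library totals moved the median of all genes by -0.51 and left 30.0% of calls higher, against 47.7% with the deposited scaling. The median moved by 0.17 with DESeq2 and with edgeR on the deposited size factors, and by 0.147 with TMM. The number of members lower was 2 with equal library totals, and ranged from 1 to 2 without single libraries, being 2 without HF replicate 3. The number higher was 5 after quantile normalization and 5 with equal library totals, and ranged from 6 to 7 without single libraries, being 7 without HF replicate 2. With equal library totals 7 genes of the phosphatase list were called, and with a mean of at least 50, which tests fewer genes, 3 ligands. The log2 ratio of Cish to Stat5a plus Stat5b differed by -0.0195 with a pseudocount of 5, by -0.138 to 0.194 without single HF libraries and by -0.688 to 0.907 without single LF libraries, and that of Stat3 to Stat6 by -0.0183 to 0.105. Neither difference has a fixed sign. The call of Chil3, which is lower with equal library totals (-1.43), after quantile normalization (-1.85) and without HF replicate 1 (-1.41), also depends on these settings. The causes were not tested. No paired analysis was possible because the LF columns carry numbers that match no label, so that alternative was not run. Cish rests on 273 reads in HF and 272 in LF, and its values in the LF libraries range from 14.2 to 147.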
